A study of Mus musculus with 8 samples.

Results

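The St6galnac family are sialyltransferases of the Golgi that attach sialic acid to N-acetylgalactosamine on glycoproteins and glycolipids. In 4 mouse leukaemias with a deletion of the 11B3 interval on 1 chromosome 11, St6galnac1 and its chromosome 11 neighbours BC018473 and Gm11735 gave almost no reads, whereas all 3 had reads in every leukaemia in which only Trp53 was lost. The 7 genes described, of 18860 in the deposited tables, are BC018473, Gm11735, St6galnac1, St6galnac2, St6galnac3, St6galnac4 and St6galnac6. BC018473, Gm11735 and St6galnac1 were selected on their reads in these same libraries, near 0 in the 11B3-deleted group and present in the other, so their loss is described and not tested. St6galnac2, St6galnac3, St6galnac4 and St6galnac6 were taken by family name, to ask whether any of them was higher where St6galnac1 was lost. St6galnac5, which is in the family but not among the 7, is given beside them.

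The 11B3-deleted group (n = 4 libraries) has the genotype 11B3fl/p53fl with shNf1, shMll3 and Vav1-Cre. In it 1 chromosome 11 carries a floxed 11B3 interval that includes Trp53, while its partner has a floxed Trp53 allele. The p53-loss-only group (n = 4 libraries) is p53fl/fl with the same shNf1, shMll3 and Vav1-Cre. Both groups thus share short hairpins that target Nf1, which restrains Ras, and Mll3, a histone methyltransferase, and a Cre driven by the blood cell promoter of Vav1. The cells are C57BL/6 leukaemia cells from the marrow of moribund mice, described as lines, and no label ties each line to a separate animal. The p-values therefore measure the spread between these libraries, which may be technical.

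The 11B3-deleted libraries held 30591456 to 35719495 reads each and the p53-loss-only libraries 30502718 to 33365364. All 16 listed myeloid markers were above the low-value filter, with a summed value of 3.27e+05 to 1.02e+06 in 11B3-deleted libraries and 4.53e+05 to 7.85e+05 in p53-loss-only libraries, which fits the labelled cell type. All 8 listed B cell genes had a higher mean in the 11B3-deleted group, where their summed value was 4.84e+04 in replicate 3 and at most 1.42e+03 in the others, against 397 to 2.14e+03 in the p53-loss-only libraries. The erythroid list summed to 1.08e+04 to 1.45e+05 against 2.6e+03 to 3.38e+04. In bulk RNA, fewer cells that express a gene and less RNA per cell cannot be told apart. Values below are the deposited ones, read counts scaled for library size with 1 added, unless reads or a level per kb are named.

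Sialic acid ends many sugar chains of the cell surface. Mucin-type O-glycans begin with N-acetylgalactosamine on serine or threonine, a structure called Tn antigen. St6galnac1 caps it with sialic acid to make sialyl-Tn, after which the chain is not extended. St6galnac2 acts on the same kind of glycoprotein chain, mainly after galactose has been added. St6galnac3 and St6galnac4 add a further sialic acid to chains that already carry one, and St6galnac5 and St6galnac6 act mainly on gangliosides, the sialic acid glycolipids of membranes. In humans sialyl-Tn is best known from carcinomas and mucus-producing epithelia.

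The genes of the locus follow each other on chromosome 11 in the order St6galnac2, Gm11735, BC018473, St6galnac1 and Mxra7. BC018473 is annotated as an antisense RNA on the plus strand, and the other 4 are on the minus strand. They lie away from 11B3, with 837 of the 1580 chromosome 11 rows between Trp53 and St6galnac1. Gm11735 is annotated as an unprocessed pseudogene, a copy of a gene that keeps its layout. Its transcript is 98% identical to that of St6galnac1 over 1581 bases, with 32 differing bases and no gap, and it covers all 1578 coding bases of St6galnac1. The longest stretch without a difference is 402 bases, so many reads could be assigned to either gene, and the sources used here do not say how the authors treated reads shared by copies. The stretch below, coding bases 73 to 162 of St6galnac1 counted from the start codon, is shown because it holds 10 of the differences, which are the bases in capitals. Both sequences are 5′ to 3′ from GENCODE M21 transcripts (GRCm38), chromosome 11, minus strand.
St6galnac1: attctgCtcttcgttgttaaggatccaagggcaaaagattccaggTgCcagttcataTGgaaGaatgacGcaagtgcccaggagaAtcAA
Gm11735: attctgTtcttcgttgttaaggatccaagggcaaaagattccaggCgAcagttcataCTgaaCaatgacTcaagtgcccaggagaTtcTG
The values of Gm11735 are uncertain because of this likeness, and so to a lesser degree are those of St6galnac1, the more abundant of the pair.

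BC018473 was by far the most abundant of the 3 lost genes. The 11B3-deleted libraries, in replicate order, had values of 2.95, 1, 1.97 and 1, which is 2, 0, 1 and 0 reads. The p53-loss-only libraries had 736, 10093, 10173 and 15591. Every p53-loss-only library was far above every 11B3-deleted library, and within the p53-loss-only group replicate 1 was low. The 3 reads of the 11B3-deleted group against 35675 in the p53-loss-only group make a scaled level of 0.00799% of that group's (exact 95% Poisson bounds 0.00165% and 0.0233%, for counting error alone).

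St6galnac1 followed the same pattern at a lower level. Its values were 1, 1, 1.97 and 1 in the 11B3-deleted libraries, a single read in replicate 3, against 39.8, 388, 390 and 571 in the p53-loss-only libraries. The groups did not overlap, and p53-loss-only replicate 1 was again the lowest of its group. The level in 11B3-deleted leukaemias was 0.07% of that in p53-loss-only leukaemias (1 read against 1352, exact Poisson bounds 0.00177% and 0.39%).

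Gm11735 had no read in any of the 4 11B3-deleted libraries, against values of 8.77, 115, 119 and 120, or 8, 124, 108 and 112 reads, in the p53-loss-only libraries. Rows with no read in the 11B3-deleted group and a read in every p53-loss-only library were 4 of 18860, or 0.0212%. With 0 reads against 352, the level was at least 123-fold lower in the 11B3-deleted group, or at most 0.816% of the p53-loss-only level, taking 3 reads over the group as the limit that a count of 0 allows. It did not reach a value of 10 in at least 4 libraries and so was not among the 14679 genes tested, while the other 6 of the 7 were.

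**Figure D1:**
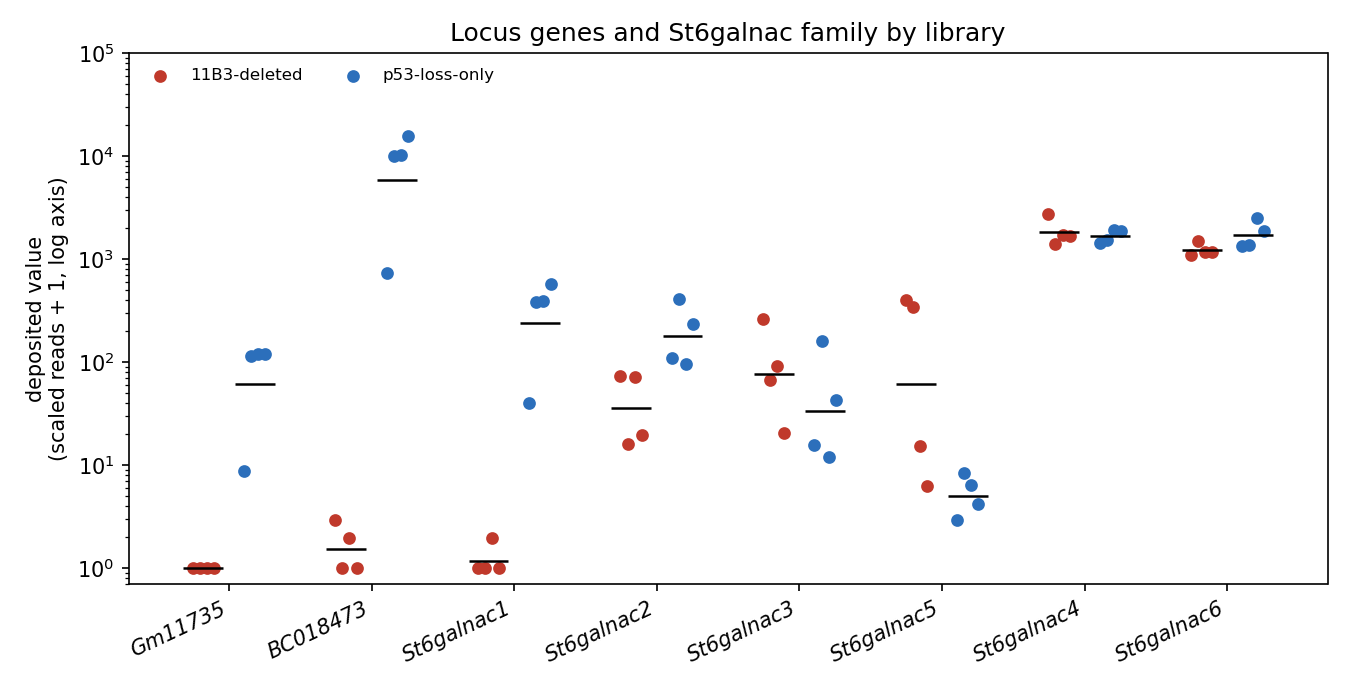
Deposited value (scaled reads plus 1, log axis) of each library for the locus genes and the St6galnac family, with 11B3-deleted libraries left of p53-loss-only libraries and a bar at the mean of the log values. Gm11735, BC018473 and St6galnac1 lie at 1 to 2.95 in 11B3-deleted libraries and at 8.77 to 15591 in p53-loss-only libraries, whereas St6galnac4 and St6galnac6 overlap.

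The 3 lost genes kept a narrow ratio to each other in the p53-loss-only leukaemias. BC018473 had 18.9, 26.1, 26.1 and 27.4 reads per St6galnac1 read in replicates 1 to 4, or 8.27, 11.4, 11.4 and 12 per kb of exon. Gm11735 had 20%, 29.4%, 30.4% and 20.9% of the reads of St6galnac1. Levels themselves ranged 21.2-fold for BC018473, 15.4-fold for Gm11735 and 14.7-fold for St6galnac1 over the same 4 libraries. The ratios moved much less than the levels, which were low together in replicate 1, at 7.23% (BC018473), 6.56% (Gm11735) and 9.98% (St6galnac1) of the median of the other 3. St6galnac2 in that library was at 46.4% of that median. BC018473 and St6galnac1 share no annotated exon base with another gene, but the sources used here do not say if the counting used strand. Reads of BC018473 and of an unannotated transcript on the opposite strand could then not be told apart.

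Genes so close to absent in the 11B3-deleted group were few. In 9 of 18860 rows, or 0.0477%, the 11B3-deleted libraries together had at most 3 reads and the p53-loss-only libraries at least 100, and the reverse was true of 9 rows, also 0.0477%. Reads in all 4 p53-loss-only libraries were found for 4 of the first 9: St6galnac1, BC018473, Gm11735 and Cyp8b1, a bile acid hydroxylase, of whose reads 95.3% came from a single library. In the fit over all genes 2 genes, 0.0136% of those tested, were lower past the threshold with limma (Benjamini-Hochberg adjusted p at most 0.05). They are BC018473 and St6galnac1, a count fixed by how these genes were chosen, and 0 genes (0%) were higher, with 173 higher at an unadjusted p under 0.05. On the recovered reads edgeR called 1 gene lower (0.00681%) and 0 higher, and DESeq2 called 50 lower (0.341%) and 8 higher (0.0545%).

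On the log2 scale the highest 11B3-deleted library was 7.96 below the lowest p53-loss-only library for BC018473, 4.34 for St6galnac1 and 3.13 for Gm11735. Among tested genes outside the 7 the widest such gap was 1.12 among genes lower in the 11B3-deleted group, at Trim46, followed by Trpv4, a cation channel (1.07), Krt7, a keratin (1.05), BC033916 (0.93) and Fos, part of the AP-1 transcription factor (0.92). Among genes higher in the 11B3-deleted group it was 1.59 at 4930447C04Rik, then 1.21 at Xlr3b, 0.94 at Adamts4, a metalloprotease, 0.76 at Gpr64 and 0.57 at Ptger3, a prostaglandin receptor. Groups did not overlap in 1.23% of tested genes on the lower side and 0.913% on the higher side. These gaps describe the libraries and, for the lost genes, restate the values that chose them.

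**Figure D2:**
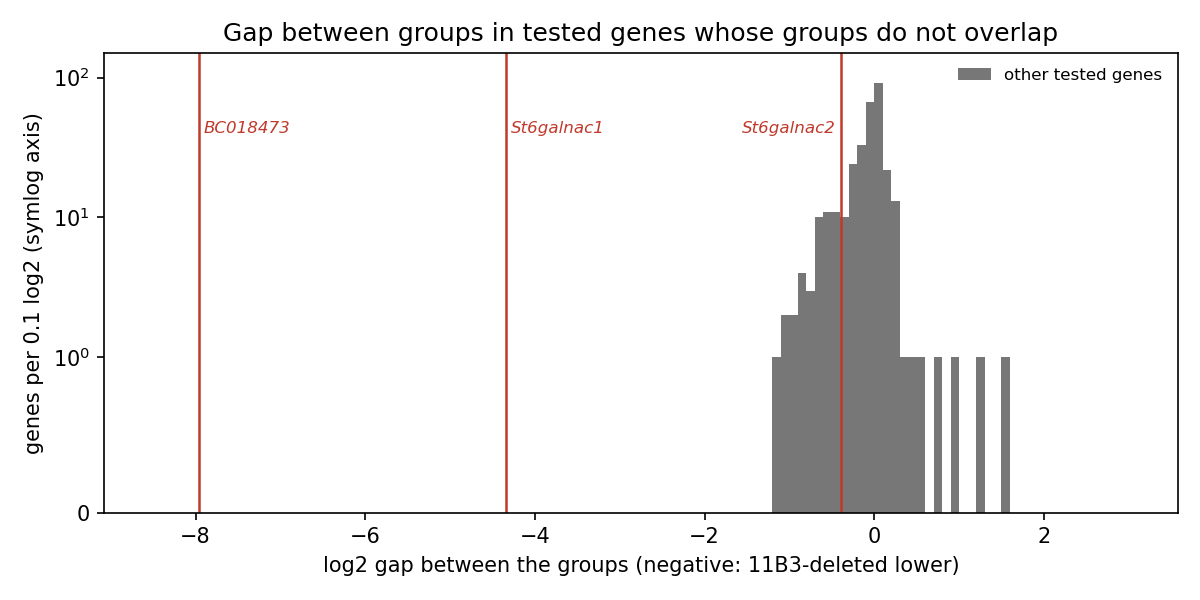
Histogram of the log2 gap between the closest libraries of the 2 groups, over tested genes whose groups do not overlap, with negative values for genes lower in the 11B3-deleted group (count axis linear to 1, then logarithmic). Red lines mark BC018473 at a gap of 7.96, St6galnac1 at 4.34 and St6galnac2 at 0.40, and other genes reach 1.12 on the lower side and 1.59 on the higher side.

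Genes with the profile most like that of St6galnac1 were searched over the 8 libraries by the root mean square distance between centred log2 profiles, where St6galnac1 itself has a spread of 4.0 by that measure. Gm11735 was nearest at 0.93 and BC018473 next at 2.16. Beyond the locus the nearest were Cgnl1, a junction protein (2.64), Gad1, which makes the transmitter GABA (2.66), Cacna1f, a calcium channel (2.80), Hspb7, a small heat-shock protein (2.85), and Olfr1331, an olfactory receptor (2.85). St6galnac2 came at 2.90. Olfr1331 had values of only 1 to 1.97 in 11B3-deleted libraries and 3.91 to 12 in p53-loss-only libraries, near the value of 3 reads. Hspb7 was at 281 in p53-loss-only replicate 3. Its value of 15 in 11B3-deleted replicate 2 was above the 6.83 and 10.2 of p53-loss-only replicates 1 and 2. For BC018473, with a spread of 6.09, St6galnac1 was nearest at 2.16 and Gm11735 at 3.01, followed by Gad1 (4.46), Cgnl1 (4.64), Hspb7 (4.68), Rab17, a small GTPase (4.79), and Cacna1f (4.79). St6galnac2 was 4.91 from BC018473. The 3 locus genes were selected on these same profiles, so their place at the head of both searches restates that choice.

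St6galnac2, next in the row on chromosome 11, had lower values in the 11B3-deleted leukaemias, without being lost and without passing the test. The 11B3-deleted libraries, in replicate order, had 73.2, 16.1, 71.8 and 19.6, and the p53-loss-only libraries had 110, 414, 96.4 and 235. Every 11B3-deleted library was below every p53-loss-only library, by a gap of 0.40 on the log2 scale, as in 1.23% of tested genes. The mean was 45.18 ± 31.59 against 213.8 ± 147.3 (SD, n = 4 each). The log2 difference was -2.32 (SE 0.68, 95% interval -3.85 to -0.79), which is 20% of the p53-loss-only level. It did not pass over all genes (limma adjusted p = 0.996, unadjusted 0.00757, DESeq2 adjusted p = 0.103), and 2.38% of tested genes were lower at an unadjusted p under 0.05. Of its exon bases 8.58% overlap 1810032O08Rik on the opposite strand, and that gene had a log2 difference of -0.01.

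St6galnac3 varied more within each group than between them. Values were 264, 67.7, 92.1 and 20.5 for 11B3-deleted libraries, against 15.6, 162, 12 and 42.5 for p53-loss-only libraries. The groups overlapped widely, with means of 111 ± 106 against 57.9 ± 70.43 (SD, n = 4 each). The log2 difference of 1.18 (SE 0.97, limma adjusted p = 0.996) has a 95% interval of -1.01 to 3.37, which takes in lower as well as several-fold higher levels.

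St6galnac4 was the family gene with the closest group levels. Values were 2749, 1401, 1716 and 1672 for 11B3-deleted libraries, against 1420, 1531, 1937 and 1869 for p53-loss-only libraries. Replicate 1 of the 11B3-deleted group lay above the other group's range, and replicate 2 lay just below it. The log2 difference was 0.12 (SE 0.23, limma adjusted p = 0.996), with a 95% interval of -0.39 to 0.64, or 76.1% to 156% of the p53-loss-only level. Without 11B3-deleted replicate 1 it was -0.08.

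St6galnac6 had 1099, 1495, 1171 and 1173 in the 11B3-deleted libraries, against 1355, 1371, 2499 and 1868 in the p53-loss-only libraries. The means were 1235 ± 176.8 against 1773 ± 539.4 (SD, n = 4 each), with overlapping groups. The log2 difference was -0.49 (SE 0.23, limma adjusted p = 0.996), with a 95% interval of -1.0 to 0.03, or 49.9% to 102% of the p53-loss-only level. None of the 4 family members taken by name passed the test in either direction.

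St6galnac5 was high in a pair of 11B3-deleted libraries. The 11B3-deleted libraries, in replicate order, had 405, 343, 15.5 and 6.33, and the p53-loss-only libraries had 2.94, 8.34, 6.48 and 4.19. Replicates 1 and 2 of the 11B3-deleted group were far above all other libraries, while replicate 4 was within the p53-loss-only range. It reached a value of 10 in only 3 libraries and was not tested. In the fit without that filter the log2 difference was 3.58 (SE 1.31, 95% interval 0.62 to 6.54, unadjusted p = 0.0229, limma adjusted p = 0.997).

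Per kb of exon, which allows a rough comparison of genes, St6galnac4 and St6galnac6 made most of the family level in both genotypes. The lengths join the exons of all annotated transcripts of a gene, so genes with several transcripts can read too low. St6galnac2 has 5790 exon bases and a longest transcript of 3643, while St6galnac1 has 2392 for both. Together St6galnac4 and St6galnac6 held 85.7% to 98.8% of the family sum in 11B3-deleted libraries and 67.4% to 93.1% in p53-loss-only libraries. St6galnac1 held 0% to 0.0761% in 11B3-deleted libraries and 3.02% to 24.8% in p53-loss-only libraries, where it ranked below St6galnac6 and St6galnac4. The order of mean levels per kb in the 11B3-deleted group was St6galnac4 (291 ± 91.4), St6galnac6 (256 ± 36.7), St6galnac5 (31.9 ± 35.2), St6galnac3 (12.2 ± 11.8), St6galnac2 (7.63 ± 5.46) and St6galnac1 (0.101 ± 0.203), each as SD with n = 4. In the p53-loss-only group it was St6galnac6 (368 ± 112), St6galnac4 (260 ± 39), St6galnac1 (145 ± 92.8), St6galnac2 (36.8 ± 25.4), St6galnac3 (6.34 ± 7.85) and St6galnac5 (0.747 ± 0.399). Ranges of neighbours in that order overlapped, apart from St6galnac6 over St6galnac5 and St6galnac2 over St6galnac1 in the 11B3-deleted group.

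Within libraries, the level of St6galnac4 per kb was 1.86, 0.697, 1.09 and 1.06 times that of St6galnac6 in 11B3-deleted replicates 1 to 4. In p53-loss-only replicates 1 to 4 it was 0.779, 0.831, 0.576 and 0.742 times that of St6galnac6. St6galnac6 was thus above St6galnac4 in all 4 p53-loss-only libraries and in 11B3-deleted replicate 2 alone of its group. This ratio was noticed in the data and was not tested.

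In group means per kb of exon, no gain in the other family genes matched the level of St6galnac1 that was missing. This depends on joined exon lengths, 2392 bases for St6galnac1 but 6482 for St6galnac4 and 6002 for St6galnac5. In deposited values, 11B3-deleted against p53-loss-only means were 1885 against 1689 for St6galnac4, 192.6 against 5.49 for St6galnac5 and 111 against 57.9 for St6galnac3. They were 1.242 against 347.2 for St6galnac1, 1235 against 1773 for St6galnac6 and 45.18 against 213.8 for St6galnac2. The 5 other family genes summed to 598 ± 114 per kb in 11B3-deleted libraries and 672 ± 136 in p53-loss-only libraries (SD, n = 4 each), a difference of -73.8. The loss of St6galnac1 was -145 per kb and the whole family differed by -218. Gains in mean were 30.2 per kb for St6galnac4 and 5.88 for St6galnac3, neither past the test, and 31.2 for St6galnac5, which was not tested. St6galnac5 was at 67.3 and 57 per kb in 11B3-deleted replicates 1 and 2, against 2.42 and 0.887 in replicates 3 and 4. St6galnac6 differed by -112 and St6galnac2 by -29.1. The family sum ranged from 508 to 761 in 11B3-deleted libraries and from 537 to 999 in p53-loss-only libraries. RNA levels give no measure of enzyme activity or of sialylated glycans.

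**Figure D3:**
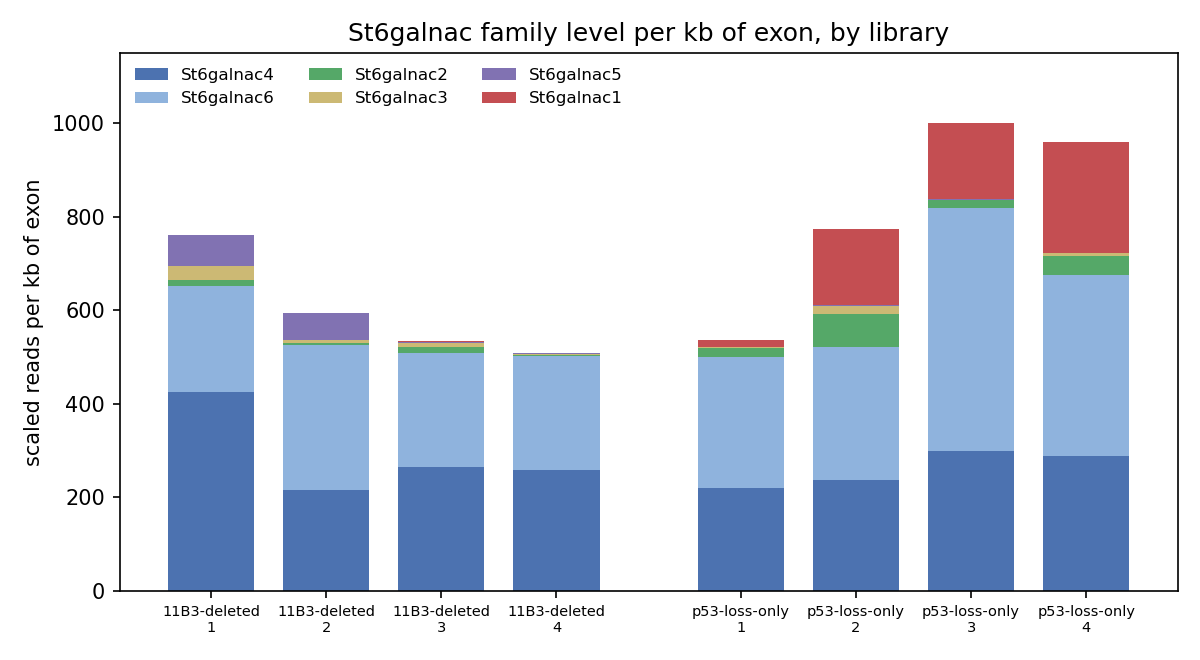
Scaled reads per kb of exon of each St6galnac gene, stacked by library, with the 4 11B3-deleted libraries left of the 4 p53-loss-only libraries. St6galnac4 and St6galnac6 fill most of each bar, St6galnac1 is seen in the p53-loss-only bars, and St6galnac5 is seen in 11B3-deleted replicates 1 and 2.

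The genes around the locus were measured in the same fit, to show where along the chromosome the difference lay. On the side of St6galnac2, 11 further genes were tested, 0 were called, and the median log2 difference was -0.01 (range -0.99 to 2.98). Nearest to St6galnac2 were 1810032O08Rik (-0.01), Gm11744 (-0.99), Cygb, a globin (-0.10), Rhbdf2, a rhomboid-like protein (-0.27), and Ube2o, a ubiquitin ligase (-0.19). On the other side of St6galnac1, 12 genes were tested, 0 were called, and the median was -0.09 (range -1.27 to 0.46). Nearest there were Mxra7 (-0.87, SE 0.89), Jmjd6, a hydroxylase (0.11), 1110005A03Rik (0.46), the splicing factor Srsf2 (-0.23) and Mfsd11 (-0.26). At an unadjusted p under 0.05 there was 1 gene on each side, and the groups did not overlap in the same genes, Gm11741 (-0.97) and 2900041M22Rik (-1.27), both lower in the 11B3-deleted group and named after their values were seen. Over all tested genes 2.38% were lower at that p and 1.23% were lower without overlap. The near-absence of reads thus covered the 3 genes between St6galnac2 and Mxra7.

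**Figure D4:**
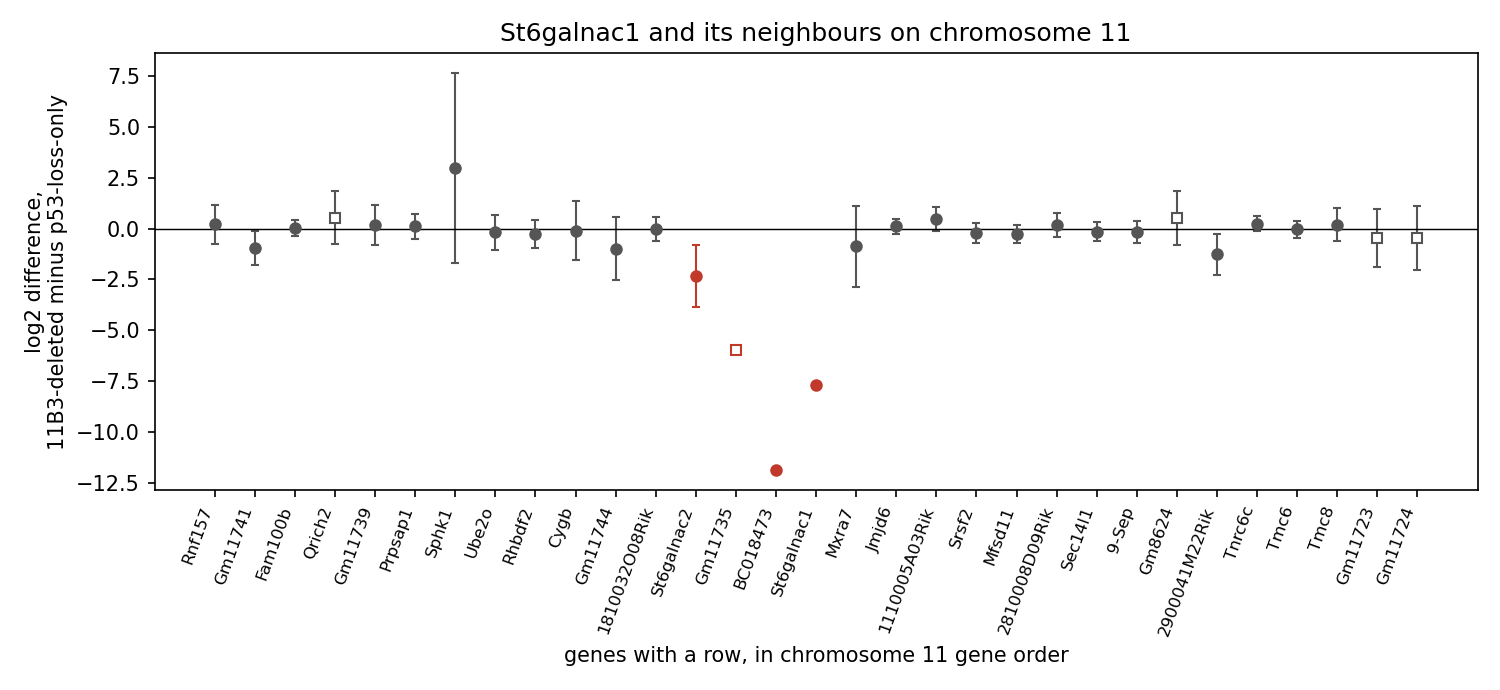
Log2 difference (11B3-deleted minus p53-loss-only) of the genes with a row around St6galnac1, in chromosome 11 gene order, with 95% limma intervals except for the 3 genes chosen for their loss, and open squares for genes that did not meet the low-value filter. The red points are St6galnac2 at -2.32, then Gm11735, BC018473 and St6galnac1, and the tested genes on both sides lie between -1.27 and 2.98.

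The genes around the family in the sialylation pathway were read from the same fit. Of 64 tested on 8 lists, 0 passed with limma, edgeR or DESeq2. At an unadjusted limma p under 0.05, a level that 2.38% of all tested genes passed on the lower side and 1.18% on the higher, there were 3 lower (Renbp, Neu1 and Ctsa) and 1 higher (Podxl). Of 10 tested sialyltransferases outside the family, 5 had a lower and 5 a higher mean, 0 were called, and their median log2 difference was 0.08, against 0.01 over all tested genes. St3gal1 (-0.24), which sialylates the galactose of O-glycans, and St8sia4 (-0.41), a polysialyltransferase, had lower means, as did St6gal1 (-0.32), which acts on N-glycans, and St8sia1 (-0.10), which makes the ganglioside GD3. St8sia6 averaged 20.35 ± 6.301 against 21.39 ± 10.93. St3gal2 (0.16), St3gal3 (0.25), St3gal4 (0.24), St3gal5 (0.52), which makes the ganglioside GM3, and St3gal6 (1.95, SE 1.03, 95% interval -0.38 to 4.29) had higher means. St3gal6 averaged 581.2 ± 757.8 in 11B3-deleted leukaemias and 111.9 ± 92.2 in p53-loss-only leukaemias (SD, n = 4 each), and its groups overlapped. Replicate 3 of the 11B3-deleted group, the library with the B cell genes, was at 1705, against 207, 66.6 and 346 in replicates 1, 2 and 4, and without it the log2 difference was 1.12.

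Of the genes that supply or remove sialic acid before transfer, 7 were tested and 0 were called, with 4 lower and 3 higher means and a median of -0.12. Gne, the first enzyme of sialic acid synthesis, differed by 0.28, Nans by 0.03, Cmas, which activates sialic acid, by -0.19, the Golgi transporter Slc35a1 by -0.12, and Npl, which breaks sialic acid down, by -0.24. Cmah, which makes the hydroxylated form that mice carry, differed by 1.45 (SE 0.77), and by 0.66 without 11B3-deleted replicate 3, where it was at 2330, against 188 to 417 in that group's other libraries. Renbp, a renin-binding protein that interconverts the sialic acid precursor sugars, averaged 364.3 ± 111.2 against 788.9 ± 391.7 (SD, n = 4 each), with a log2 difference of -1.02 (95% interval -2.0 to -0.05, limma unadjusted p = 0.0419). Without single libraries it ran from -1.39 to -0.74, the latter without p53-loss-only replicate 3. Nanp, a phosphatase of the same pathway, was below the low-value filter.

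The list of enzymes that act on attached sialic acid, with the partner protein Ctsa, had 4 tested genes. All 4 had a lower mean in the 11B3-deleted group, with a median log2 difference of -0.36 and 0 called. Neu1, the lysosomal sialidase, averaged 2302 ± 717.6 in 11B3-deleted leukaemias and 3549 ± 711.9 in p53-loss-only leukaemias (log2 difference -0.66, 95% interval -1.24 to -0.09). Ctsa, the protective protein that Neu1 needs, averaged 5433 ± 347.6 against 7942 ± 2409 (-0.51, 95% interval -0.96 to -0.05). Its groups did not overlap, as in 1.23% of tested genes on the lower side. Without single libraries Neu1 ran from -0.80 to -0.47, the latter without 11B3-deleted replicate 1. Ctsa ran from -0.62 to -0.32, the latter without p53-loss-only replicate 3, where it was at 11439. The sialidase Neu3 (-0.09) and the esterase Siae (-0.21) had intervals that include 0.

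The enzymes that start O-glycans, the Galnt genes that make the Tn antigen, were 12 tested, with 7 lower and 5 higher means, a median of -0.06 and 0 called. The smallest p values were those of Galnt15 (0.77), Galnt6 (-0.44), Galnt11 (-0.30) and Galnt10 (-0.25). Of 7 tested enzymes that extend the chain, 5 had a lower and 2 a higher mean, with a median of -0.42 and 0 called. Among them B3gnt6 differed by -1.10, Gcnt4 by 1.49, Gcnt1 by -0.42 and C1galt1c1, the chaperone that core 1 synthesis needs, by -0.51, each with a 95% interval that includes 0. Of 9 tested genes of ganglioside synthesis 0 were called (median -0.01), with Ugcg at 0.76, B3galt4 at -0.44, St3gal1 at -0.24 and St3gal5 at 0.52.

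Of 12 tested carriers of O-glycans on blood cells 0 were called, with a median of -0.07. Podxl, a sialomucin, averaged 1956 ± 2812 in 11B3-deleted leukaemias and 176.2 ± 186 in p53-loss-only leukaemias (SD, n = 4 each), with overlapping groups and a log2 difference of 3.16 (95% interval 0.48 to 5.85, limma unadjusted p = 0.0259). Replicate 1 of the 11B3-deleted group was at 6150, against 214, 520 and 939 in replicates 2 to 4, and without it the log2 difference was 2.23 (unadjusted p = 0.0694). The same library had the most of the erythroid gene Car1, at 118944. Cd24a differed by 2.12 and Emcn by 1.12, each with an interval that includes 0. The sums of the erythroid and B cell lists are given above, and the part of other cell types in these values was not tested. Of 8 tested Siglecs, the receptors that bind sialic acid, 3 had a lower and 5 a higher mean, with a median of 0.53 and 0 called. Siglecf (2.03), Siglecg (1.43), Siglech (1.54) and Cd22 (0.93), the B cell Siglec, had the smallest p, and each interval includes 0. Siglecg was at 2100 in 11B3-deleted replicate 3 and differed by 0.67 without it, and Siglecf was at 1691 in 11B3-deleted replicate 1 and differed by 0.94 without it.

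**Figure D5:**
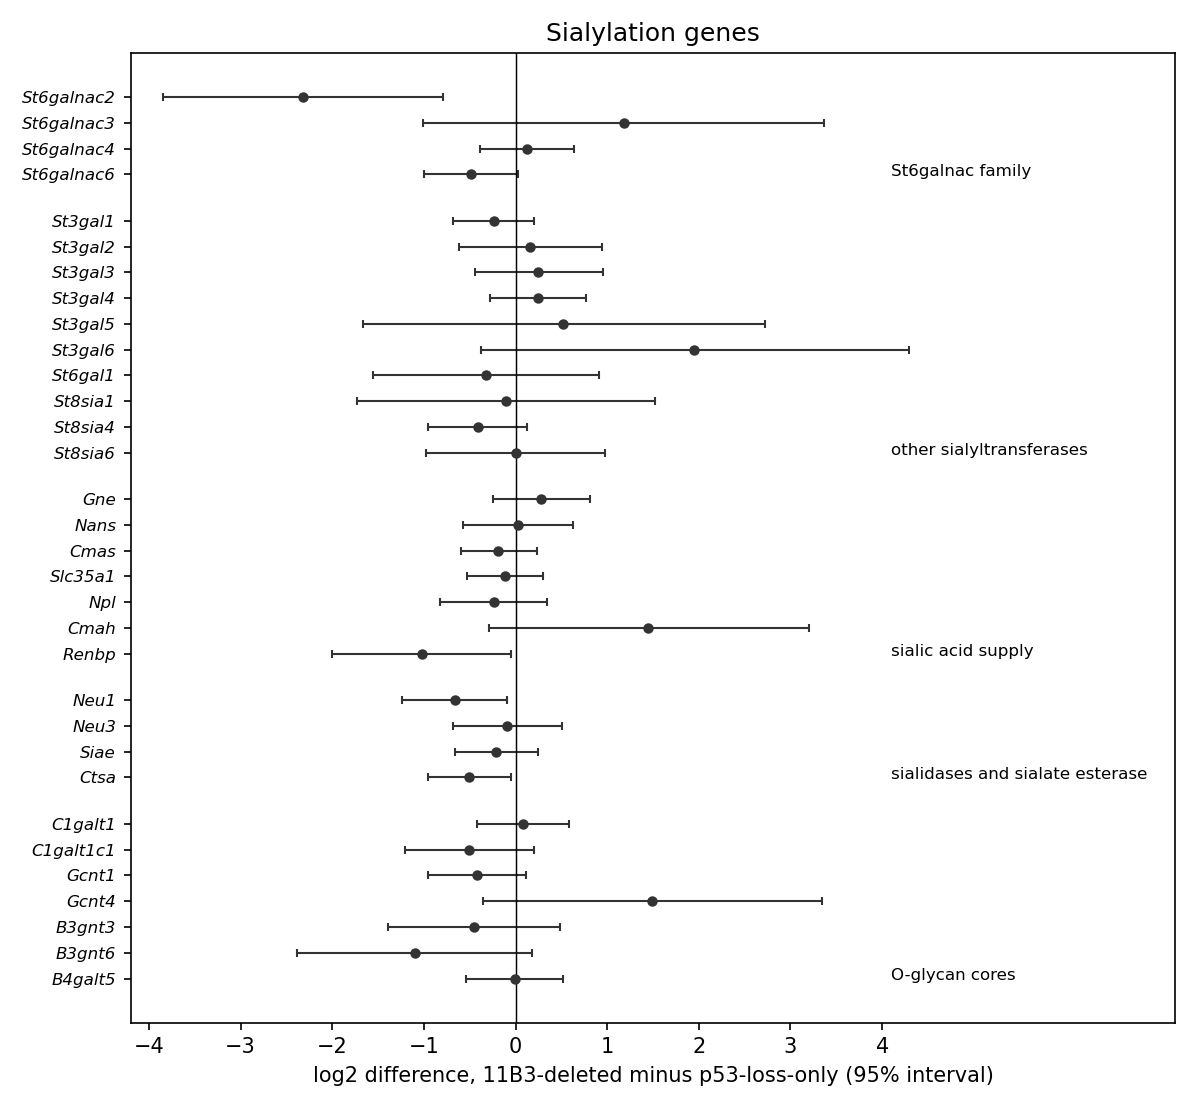
Log2 difference (11B3-deleted minus p53-loss-only) with its 95% limma interval for tested genes of the St6galnac family without St6galnac1 and of 4 related lists. Most intervals include 0, and St6galnac2 at -2.32, Renbp at -1.02, Neu1 at -0.66 and Ctsa at -0.51 lie below 0 with their whole interval, without passing over all genes.

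Epithelial and goblet cell markers were examined because St6galnac1 is known from such cells. Of 12 listed, 6 had a row, 4 were tested with 0 called, and 2, Krt8 and Clca3, had at most 3 reads in every library. Their summed value was 186 to 307 in 11B3-deleted libraries and 212 to 1.25e+03 in p53-loss-only libraries. For Epcam the 11B3-deleted libraries had 5.88, 37.6, 51.4 and 13.4, against 6.83, 898, 9.77 and 23.4 for p53-loss-only libraries. For Krt18 the 11B3-deleted libraries had 147, 118, 236 and 70.2, against 204, 257, 28.4 and 734 for p53-loss-only libraries. Epcam was highest in p53-loss-only replicate 2, and Krt18 in p53-loss-only replicate 4, which also had the most BC018473 and St6galnac1. Other listed markers went the other way in p53-loss-only replicate 4. Muc2 was at 3.13 and Cdh1 at 25.5 there, each the lowest value of the p53-loss-only group. The part of such cells in the values of the locus genes was not tested. T and NK cell markers summed to 224 to 975 against 614 to 923, megakaryocyte markers to 175 to 2.05e+03 against 230 to 1.29e+03, and stroma and endothelium markers to 2.67e+03 to 1.53e+04 against 5.47e+03 to 7.49e+03. Without 11B3-deleted replicate 3, the library with the B cell genes, the log2 differences were -2.65 for St6galnac2, 1.09 for St6galnac3, 0.15 for St6galnac4 and -0.46 for St6galnac6.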

How the data were processed

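Total RNA of 8 libraries was sequenced by the authors. Per the submitters' processing notes, STAR, HTSeq and DESeq were used with mm9, in roles and versions not given. The deposited signal values are scaled read counts with 1 added, as their spacing shows, and undoing that scaling returned whole reads for 100% of entries (tolerance 0.02). The design allowed for counts, but the values are scaled, so limma-trend was applied to their log2, where the added 1 acts as a pseudocount and understates folds of low genes. Genes at 10 or more in at least 4 libraries were tested (14679), two-sided, with Benjamini-Hochberg adjustment at 0.05. Every pair of libraries differed by more than sampling noise. Reads in a library have no molecular identifiers named, so 95% Poisson intervals and the limit of 3 reads cover counting error only, and 3 reads correspond to values of 3.66 to 4.29. edgeR on the recovered reads called 1 gene.

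Levels per kb use the joined exon length of all transcripts of a gene from GENCODE M21 (GRCm38), which also gave gene order, strand and type by Ensembl identifier. Its build differs from the files', so no coordinates are given. Transcripts were aligned with blastn 2.17.0. Fits used DESeq2 1.42.0, edgeR 4.0.16 and limma 3.58.1 under R 4.3.3. The fit procedure was also run on simulated data, where the pass rule covered estimated differences at a low spread only, not the calls. The members and gene lists were chosen with earlier results of these data known. Named genes are all members, all genes of the other sialyltransferase and sialic acid supply lists, up to 4 of each other list with the smallest p, up to 5 neighbours a side, and the 5 nearest in profile and widest in gap. Others were chosen after their values were seen. A gene that the rule takes is not reported here. Replicate numbers come from the titles, and same-numbered libraries did not deviate together. Alternatives were 2 other filters, a constant of 5, TMM rescaling, edgeR, DESeq2, limma voom with sample weights, a replicate block and each library left out. Differences of 12 pathway genes named with values were also computed without each library, chosen after seeing the data.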

Additional observations from a re-analysis of the deposited data

Results flagged for a closer look

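Within groups of 4 libraries, 4 values in 16 groups checked were set off from the other 3 by the gap relative to the range, where chance flags about 1 in 20 groups. In p53-loss-only replicate 1 the lowest values were 736 for BC018473, 8.77 for Gm11735 and 39.8 for St6galnac1, against 10093 to 15591, 115 to 120 and 388 to 571 in the other p53-loss-only libraries. These 3 genes share a locus, and Gm11735 and St6galnac1 share sequence, so the 3 values are not separate observations. The fourth value is St6galnac1 in 11B3-deleted replicate 3, at 1.97, which is 1 read where the other libraries of the group had 0. That difference is below what this depth can order, so it is not read as a library apart.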

How the results depend on the processing

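Over 158 alternative values 138 kept their direction, or stayed near the main value. Among the 138 are counts of called genes that stayed at 0 and levels of the 3 genes chosen for their loss. Such values had little room to move. The 2 genes called lower became 1 with a constant of 5, 1 with edgeR, 50 with DESeq2 and 0 with limma voom with sample weights. The 0 genes called higher became 8 with DESeq2. Leaving out each library gave 0 to 1 genes called lower: 0 without 11B3-deleted replicate 2 or without any p53-loss-only replicate, and 1 without 11B3-deleted replicate 1, 3 or 4. The filter of at least 4 libraries stayed the same there, so genes present in the p53-loss-only group only were no longer tested without a p53-loss-only library. St6galnac4 turned to -0.08 without 11B3-deleted replicate 1, and its values without single libraries ran from -0.08 to 0.25, none called. Of the other differences, St6galnac2 ran from -2.66 to -1.92 (adjusted p 0.103 to 1 over 16 limma, edgeR or DESeq2 alternatives), St6galnac3 from 0.58 to 1.93 and St6galnac6 from -0.60 to -0.30, none called. No listed pathway gene outside the family and no neighbour was called under any alternative.

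The limit for Gm11735 ran from 0.626% to 1.12% without single libraries, and the level of St6galnac1 from 0.054% to 0.283%, the last being an upper limit without 11B3-deleted replicate 3, which holds the only read. BC018473 ran from 0.00353% to 0.0106%. At this depth values under 3 reads cannot be ordered.

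With the replicate number as a block 0 genes were called lower. After centring each group, same-numbered libraries correlated at -0.03, -0.217, -0.414 and -0.243, so no pairing by number was seen. Differently numbered libraries ran from -0.365 to 0.453, a spread in which a smaller effect of shared handling could not be seen.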
